A study of Homo sapiens with 39 samples.

Results

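The genes described here are 37 lysosome genes: the transcription factors TFEB and TFE3, 9 cathepsins and related peptidases, 7 membrane proteins, 11 other hydrolases, activators and lipid carriers, the autophagy receptor SQSTM1 and 7 proton pump genes. They were taken by gene symbol from the 60671 genes of the expression table. The set was proposed because CTSK was lower in both A375 clones that lack region R1, so the A375 R1 values below are a description with no test. Expression was measured by RNA sequencing in 39 libraries of A375 and WM115, both established human melanoma cell lines. The libraries come from unedited cells (WT) and from edited clones that carry a deletion of R1 or of R4, 2 regulatory regions of SOX10, the lineage transcription factor. The question behind the design is what the loss of each region does to expression in each line.

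In A375 there were 4 WT libraries, 3 of clone 1.1 and 4 of clone 1.2 (genotype R1_del), and 4 of clone 4.1 and 3 of clone 4.2 (genotype R4_del). In WM115 there were 4 WT libraries, 5 of clone 1.1 and 3 of clone 1.2 (R1_del), and 3 of clone 4.1 and 3 of clone 4.2 (R4_del). WM115 clone 1.3, with 3 libraries, carries a number of the R1 series and a genotype label of R4, and was kept out of every comparison of regions. Each edited group is 1 clone, so a test over libraries compares that clone with WT, and clonal differences and the deletion cannot be told apart in it. The labels do not say that the libraries of a group came from separate cultures, so p-values measure only the spread between these libraries.

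Lysosomes are acidic organelles that break down proteins, lipids and sugars. A proton pump, the V-ATPase, acidifies them, and cathepsins, glycosidases and lipid hydrolases work inside at low pH. TFEB and TFE3 switch on lysosome genes by binding short DNA motifs with the core letters CACGTG, and MITF, the master regulator of the melanocyte lineage, belongs to the same family and can bind the same motifs. Melanosomes, the pigment organelles of melanocytes, are related to lysosomes, and several lysosome proteins are shared between them.

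Because these factors share a motif, the promoters of the 37 genes were searched for it in the RefSeq promoter table (GRCh38.p14, 250 bases before to 50 bases after each start). The table held 25 of them; ASAH1, ATP6V0D2, ATP6V1A, ATP6V1B2, ATP6V1C1, ATP6V1H, CTSB, CTSK, CTSS, HEXA, LAMP2 and PSAP had no entry. The palindrome CACGTG was found in 9 of the 25 genes and in 8.77% of all 27305 genes in the table. The longer palindrome TCACGTGA, which contains the first, was found in 5 of 25 and in 1.18% of all genes. The full CLEAR palindrome, which contains both and is the longest form searched, was found in GAA and MCOLN1 and in 0.421% of all genes. The melanocyte-type motif TCATGTGA, read on both strands and therefore also as TCACATGA, was found in CD63, PPT1 and TPP1 and in 1.24% of all genes. A match is a description of letters and not a measured binding site. The genes were listed as targets that MITF, TFEB and TFE3 share. A motif share above that of all genes was therefore built into their choice, and nothing is read from it. The following 30-base windows are shown for the genes with TCACGTGA and for CLCN7, NEU1, CTSD and TPP1. Windows of CD63 and PPT1 are not shown. Each window reads 5′ to 3′ on the strand of its gene, and capitals mark the motif. 
LAMP1 (chr13:113297199-113297228, plus strand): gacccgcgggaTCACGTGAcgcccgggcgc
CTSA (chr20:45891298-45891327, plus strand): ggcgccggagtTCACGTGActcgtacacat
GAA (chr17:80101493-80101522, plus strand): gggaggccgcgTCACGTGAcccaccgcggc
MCOLN1 (chr19:7522598-7522627, plus strand): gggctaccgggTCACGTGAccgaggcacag
ATP6V0D1 (chr16:67481199-67481228, minus strand): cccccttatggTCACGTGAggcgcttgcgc
CLCN7 (chr16:1475038-1475067, minus strand): cccgtcgcgcgtCACGTGgccgccggcgcg
NEU1 (chr6:31862930-31862959, minus strand): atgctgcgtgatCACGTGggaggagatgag
CTSD (chr11:1763957-1763986, minus strand): gccggccgcgccCACGTGaccggtccgggt
TPP1 (chr11:6619413-6619442, minus strand): catgtgatccgTCACATGAcagcagatccg
The 5 genes printed with TCACGTGA carried the motif at distances of -77 to -2 from the RefSeq start, counted at its first base and over all its copies in the window searched.

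Values are TPM, transcript abundances corrected for length and scaled to one total in every library. Read depth is unknown because no counts were given, so no counting interval accompanies a value. A gene was tested where it reached 1 TPM in at least 3 libraries of a line, and 36 of the 37 genes were tested in both lines. ATP6V0D2, the pump subunit typical of osteoclasts, was under 1 TPM in every library and was not tested. A gene was called at a limma adjusted p under 0.05 over all genes tested (Benjamini-Hochberg) and a log2 difference of at least 1 on the log2(TPM + 1) scale. The mitochondrial share of TPM was 0.968 to 4.92% in A375 and 4.71 to 19.4% in WM115, and WM115 WT (13.7 to 15.6%) lay above all libraries of its clones 4.1 (5.24 to 10.8%) and 4.2 (4.71 to 12.7%). In WM115 clone 1.2, library 3 stood apart with 9.56 TPM of SOX10, against 279 and 272 in libraries 1 and 2. The melanocyte-lineage marker SOX10 was otherwise expressed at 321 TPM or more in all libraries outside this clone. The macrophage markers PTPRC, CD14, CSF1R and CD163 stayed at or under 1.19 TPM in every library.

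In the unedited cells 15 of the 36 lysosome genes tested were called higher in WM115 than in A375, CTSD, CTSS and ASAH1 by the most. The 37 genes together held 0.934% ± 0.143 of TPM in WM115 WT (SD, n = 4) and 0.430% ± 0.0226 in A375 WT (SD, n = 4). Of the 36 genes, 27 lay above 0 in log2 difference and 9 below, and 0 were called lower. Of all 16126 genes tested in this comparison, 22.7% were called, 13.1% higher and 9.55% lower. The median log2 difference was 0.69 over the 36 genes and 0.04 over all genes.

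CTSD, the aspartic protease cathepsin D, had the largest difference. It measured 197, 189, 157 and 171 TPM in the A375 WT libraries and 1743, 1475, 1124 and 1641 TPM in those of WM115. The 2 sets did not overlap, and the log2 difference was 3.05 ± 0.17 (SE; limma adjusted p = 6.64e-07). CTSS, the cysteine protease cathepsin S known for antigen processing, measured 1.38, 3.55, 3.06 and 0.907 TPM in A375 WT and 29.9, 16.0, 8.68 and 31.0 TPM in WM115 WT. Again every WM115 library was higher, by a log2 difference of 2.73 ± 0.42 (SE; limma adjusted p = 5.15e-04). ASAH1, the acid ceramidase that cleaves ceramide to sphingosine, measured 31.2, 30.3, 34.9 and 21.2 TPM in A375 WT and 180, 127, 57.4 and 261 TPM in WM115 WT. The log2 difference of ASAH1 was 2.20 ± 0.39 (SE; limma adjusted p = 1.35e-03), and its WM115 values were widely spread. 

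The other 12 genes called higher in WM115 WT covered most roles. Among peptidases, CTSA differed by 1.69 and CTSB by 1.24 on the log2 scale. Among membrane proteins these were LAMP2 (1.66), CLCN7 (1.38) and CD63 (1.102). TPP1, NEU1, PSAP, SMPD1 and NPC2, which degrade peptides, sialic acid conjugates and sphingolipids or carry cholesterol, differed by 1.75, 1.53, 1.40, 1.19 and 1.13. SQSTM1 differed by 1.28 and the pump subunit ATP6V1B2 by 1.48. In the other direction CTSK, ATP6V1H, ATP6V1C1 and CTSC had an adjusted p under 0.05 but log2 differences of -0.98, -0.95, -0.61 and -0.61, under the required size. CTSK was called lower under 6 of 16 alternative settings and ATP6V1H under 3 of 16. ATP6V1H and ATP6V1C1, also pump subunits, measured 22.3 and 22.1 TPM in WM115 WT and 44.7 and 35.7 TPM in A375 WT. The mitochondrial share of the 2 lines did not overlap, so it cannot be told apart from the line: with it as a covariate CTSD alone was still called, at 3.32 ± 0.48 (SE; limma adjusted p = 9.04e-03).

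Of the genes named above with a motif of 8 bases, CTSA, TPP1 and CD63 were among the 15. Given with A375 WT first and SD over 4 libraries, CTSA measured 125 TPM ± 11.2 and 406 TPM ± 60.6, and TPP1 43.5 TPM ± 19.6 and 141 TPM ± 24.2. LAMP1 measured 169 TPM ± 30.9 and 185 TPM ± 22.05, and ATP6V0D1 81.2 TPM ± 26.5 and 83.0 TPM ± 6.84. GAA, the acid alpha-glucosidase, measured 65.7 TPM ± 44.4 and 77.7 TPM ± 19.2, and MCOLN1, a lysosomal calcium channel, 25.6 TPM ± 6.94 and 22.9 TPM ± 1.68. The last 4 genes were not called, and neither was PPT1, which also has a motif of 8 bases.

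**Figure D1:**
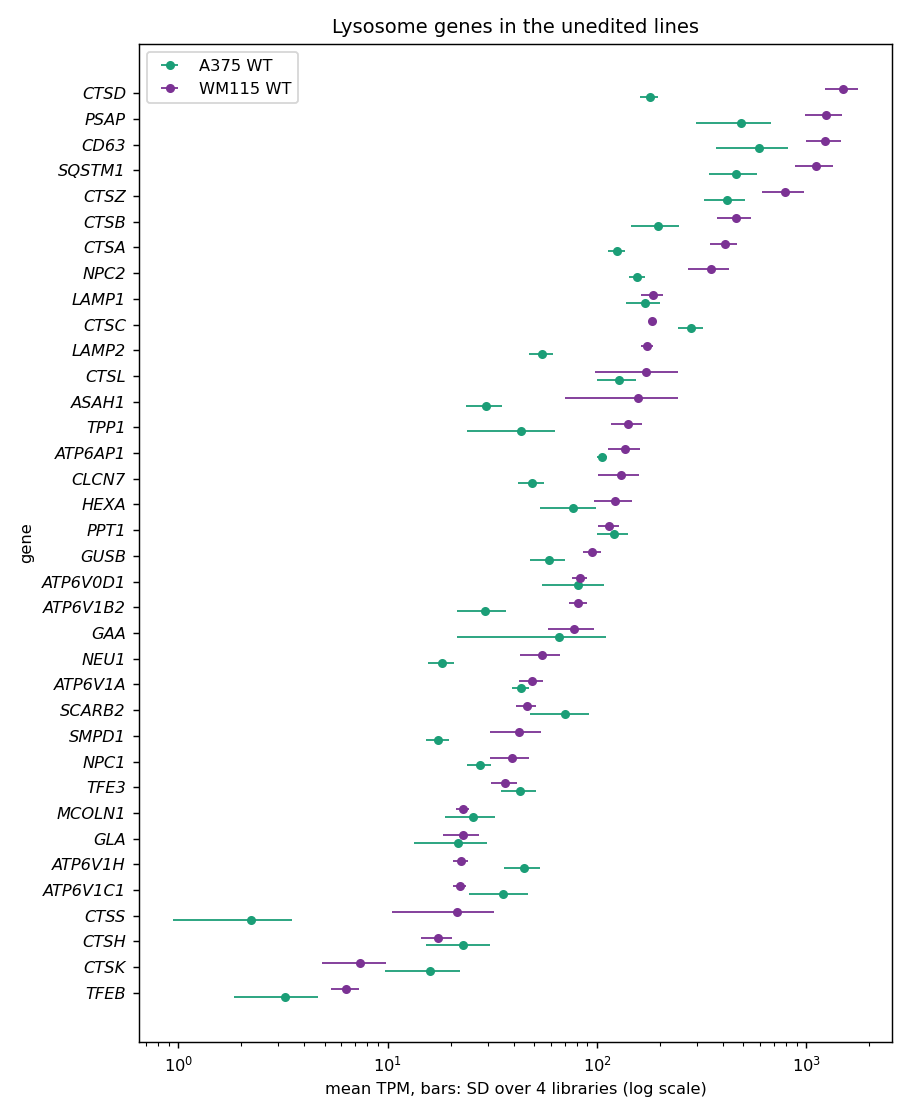
Mean TPM of the 36 tested lysosome genes in the unedited lines on a log axis, with the SD over 4 libraries as bars (the lower bar is cut where it would reach 0). CTSD, CTSS and ASAH1 lie farthest to the right in WM115 relative to A375, while LAMP1, PPT1 and ATP6V0D1 are close in both lines.

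The clones were then compared with the WT of their own line, and the WM115 R4 clones had the highest counts of called lysosome genes. The number of the 36 genes called, beside the share called among all genes tested, was 0 (0.653%) in A375 clone 4.1 and 0 (0.473%) in A375 clone 4.2. In A375 clones 1.1 and 1.2, where 0.731% and 4.01% of all genes were called, the 1 lysosome gene past these limits was CTSK, the gene that chose the set, so nothing is read from its count. In WM115 it was 1 (4.88%) in clone 1.1, 2 (7.61%) in clone 1.2, 0 (0.618%) in clone 1.3, 5 (7.57%) in clone 4.1 and 7 (6.6%) in clone 4.2. At an unadjusted p under 0.05, the 3 comparisons with 0 calls held 6, 2 and 7 of the 36 genes. The share of all genes at that limit was not counted for them, so nothing is read from these numbers. The clones of a line share their WT libraries, so the comparisons are not independent of each other. These counts come from fits that do not pair libraries by replicate number. With that number as a block, CTSS was called higher in A375 clone 4.1, as given below. Median differences of the 36 genes were -0.27 in WM115 clone 4.1 and -0.43 in clone 4.2, where the medians of all genes were -0.10 and -0.10.

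**Figure D2:**
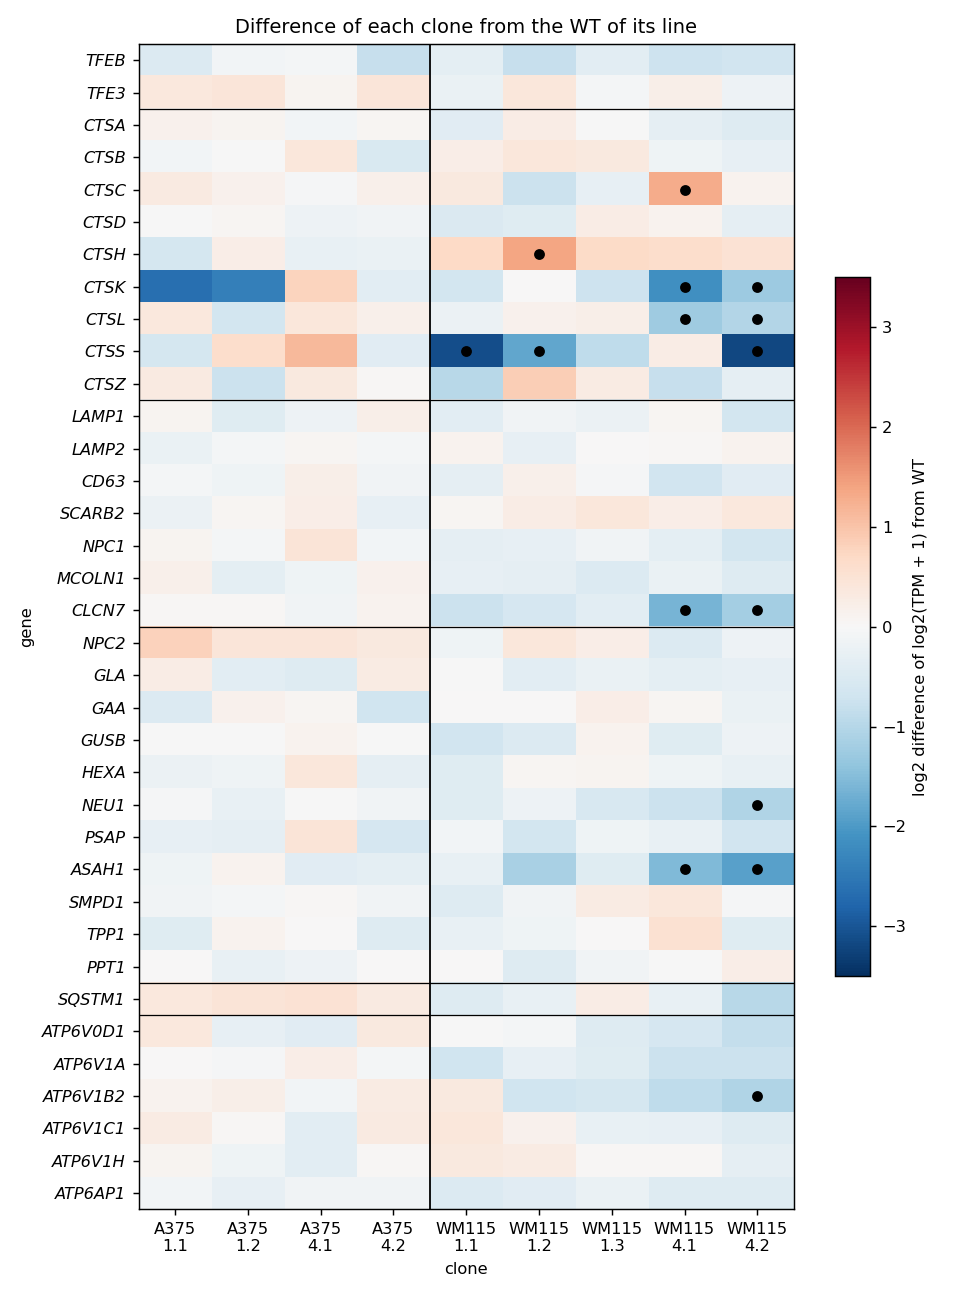
Log2 difference of log2(TPM + 1) from the WT of the same line for the 36 tested genes (rows, grouped by role) in the 9 clones (columns), red higher and blue lower. Dots mark genes called in the fits that do not pair libraries by replicate number. No dots are drawn in A375 clones 1.1 and 1.2, which chose the genes. CTSK and CTSS have the deepest blue, and ASAH1, CLCN7, CTSL and CTSK are blue in both WM115 R4 clones.

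Among the transcription factors, TFEB was rare and TFE3 moderately expressed, and neither was called in any clone. TFEB measured 2.97, 5.13, 3.06 and 1.78 TPM in A375 WT. It was 3.59, 1.49 and 1.19 TPM in A375 clone 1.1, 3.05, 2.80, 2.81 and 2.49 TPM in clone 1.2, 3.09, 4.29, 3.14 and 1.52 TPM in clone 4.1, and 2.12, 0.885 and 1.198 TPM in clone 4.2. Every A375 clone overlapped WT in this gene. In WM115, TFEB measured 7.20, 6.68, 4.997 and 6.44 TPM in WT, 5.76, 4.88, 4.38, 3.73 and 5.29 TPM in clone 1.1, 3.08, 3.83 and 2.72 TPM in clone 1.2, and 3.86, 2.89 and 8.22 TPM in clone 1.3. In WM115 clone 4.1 it was 3.33, 3.29 and 3.72 TPM, and in clone 4.2 it was 4.76, 3.05 and 3.05 TPM. All libraries of clones 1.2, 4.1 and 4.2 lay below the lowest WM115 WT library, with log2 differences of -0.80, -0.71 and -0.68, short of the size required for a call.

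TFE3 differed from WT by less than the size of a call in all clones. In A375 it measured 46.0, 38.1, 34.6 and 52.6 TPM in WT, 48.0, 55.4 and 63.2 TPM in clone 1.1, 49.2, 59.96, 59.5 and 61.4 TPM in clone 1.2, 45.4, 49.7, 40.0 and 47.6 TPM in clone 4.1, and 53.4, 55.8 and 63.2 TPM in clone 4.2. In WM115 it measured 39.1, 37.5, 39.7 and 28.7 TPM in WT, 32.5, 29.7, 30.01, 27.5 and 33.4 TPM in clone 1.1, 44.5, 43.1 and 56.8 TPM in clone 1.2, and 30.4, 45.4 and 28.7 TPM in clone 1.3. Clone 4.1 measured 42.5, 38.8 and 44.9 TPM and clone 4.2 measured 38.7, 27.5 and 30.7 TPM. Its log2 differences from WT lay between -0.23 and 0.43 in the 9 clones.

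MITF, the third family member considered, moved more than either. In WM115 it measured 149, 139, 60.5 and 164 TPM in WT, 11.2, 9.25 and 11.1 TPM in clone 4.1, and 15.2, 15.8 and 18.3 TPM in clone 4.2. Both R4 clones lay below every WT library, with log2 differences of -3.40 ± 0.61 and -2.80 ± 0.61 (SE; limma adjusted p = 7.93e-04 and 4.12e-03). MITF measured 96.2, 51.0, 54.4, 55.6 and 98.1 TPM in clone 1.1 and was not called there. In clone 1.2 MITF measured 41.4, 88.4 and 6.16 TPM, the last in the library low in SOX10. It was called lower there, by -2.01 ± 0.61 (SE; limma adjusted p = 0.0253), and without that library it was not, at -0.97 (adjusted p = 0.240). In A375 WT the level was 22.3 TPM ± 3.30 (SD, n = 4), below every WM115 WT library. A375 clone 1.1 measured 7.53, 7.41 and 10.3 TPM of MITF, below all its WT libraries, which is given with no test because this contrast chose the set.

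Cathepsin K, encoded by CTSK (GRCh38 chromosome 1, 150796208 to 150808323, minus strand), is a collagen-degrading protease best known from osteoclasts, where MITF and TFE3 are established activators of its gene. It measured 15.9, 16.3, 23.2 and 8.13 TPM in A375 WT. In A375 clone 1.1 it measured 2.98, 1.37 and 0.812 TPM and in clone 1.2 it measured 2.497, 1.05, 2.53 and 2.42 TPM. Every R1 library was below every WT library; these values chose the set, with log2 differences of -2.63 and -2.39. The next lowest lysosome gene was CTSH in clone 1.1, at -0.62, and CTSZ in clone 1.2, at -0.75, both under the required size.

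In the A375 R4 clones CTSK did not follow that pattern. It measured 23.7, 29.1, 34.6 and 20.3 TPM in clone 4.1 and 25.2, 10.3 and 5.20 TPM in clone 4.2. The log2 difference from WT was 0.78 in clone 4.1 and -0.38 in clone 4.2, and neither was called. CTSS measured 5.82, 10.7, 4.92 and 3.06 TPM in clone 4.1 and had a log2 difference of 1.13 that was not called. Libraries of clone 4.1 and of A375 WT with the same number deviated together, and in the fit with the replicate number as a block CTSS was called higher (1.13 ± 0.18, SE; limma adjusted p = 0.0109), while CTSK stayed under the required size (0.78 ± 0.13, SE; limma adjusted p = 0.0123). For both genes each library of clone 4.1 was above the WT library of its own number.

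In WM115 it was the R4 clones in which CTSK fell. The gene measured 8.12, 5.52, 5.24 and 10.6 TPM in WT, 0.705, 0.718 and 1.09 TPM in clone 4.1, and 1.25, 2.495 and 3.71 TPM in clone 4.2. Both clones lay entirely below WT. The log2 difference was -2.14 ± 0.39 in clone 4.1 and -1.28 ± 0.39 in clone 4.2 (SE; limma adjusted p = 8.12e-04 and 0.0253). With the mitochondrial share as a covariate the value in clone 4.1 was -1.60 and still called, and that in clone 4.2 was -0.89 and was not.

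The WM115 R1 clones did not show a called change of CTSK. It measured 4.18, 4.42, 2.42, 5.96 and 4.51 TPM in clone 1.1, where the log2 difference was -0.65. In clone 1.2 it measured 4.5, 4.43 and 17.0 TPM, the high value being that of the library low in SOX10, and in clone 1.3 it measured 2.06, 4.23 and 6.24 TPM. The contrast of R4 minus R1 clones in WM115 minus the same contrast in A375 was -4.10 on the log2 scale for CTSK, over the 8 clones of known region. The A375 R1 fall that chose the gene is a part of this value, which is therefore a description with no test. Over all 15287 genes, 0 had a limma adjusted p under 0.05 for this contrast and 390 had an unadjusted p under 0.05.

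CTSS lies beside CTSK on chromosome 1 (150730196 to 150765957, minus strand) but did not move with it in every clone. From 29.9, 16.0, 8.68 and 31.0 TPM in WM115 WT it measured 1.14, 1.61, 0.368, 2.26 and 1.91 TPM in clone 1.1. In clone 4.2 it measured 1.07, 0.508 and 2.48 TPM. Both clones were far below every WT library, with log2 differences of -3.09 ± 0.44 and -3.18 ± 0.50 (SE; limma adjusted p = 9.31e-05 and 3.87e-04). In clone 4.1, by contrast, CTSS measured 25.5, 21.3 and 22.5 TPM, within the range of WT, although CTSK was at its lowest there.

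CTSS also fell in WM115 clone 1.2, at 8.79, 1.97 and 5.32 TPM, with 1 library above the lowest WT value. The log2 difference was -1.82 ± 0.50 (SE; limma adjusted p = 0.0158), and without library 3, low in SOX10, it was -1.90 with an adjusted p of 0.0617. Clone 1.3 measured 6.25, 5.57 and 25.04 TPM and was not called. Clones with the same deletion were also compared directly. CTSS was lower in clone 4.2 than in clone 4.1 by -3.44 ± 0.53 (SE, limma adjusted p = 4.48e-04). It was higher in clone 1.2 than in clone 1.1 by 1.27 ± 0.48 (SE, limma adjusted p = 0.0450). The call between clones 1.2 and 1.1 was lost under 10 of 17 alternative settings. In A375 clones 1.1, 1.2 and 4.2 the mean level of CTSS was 1.05, 3.66 and 1.56 TPM, beside 2.22 TPM in WT.

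**Figure D3:**
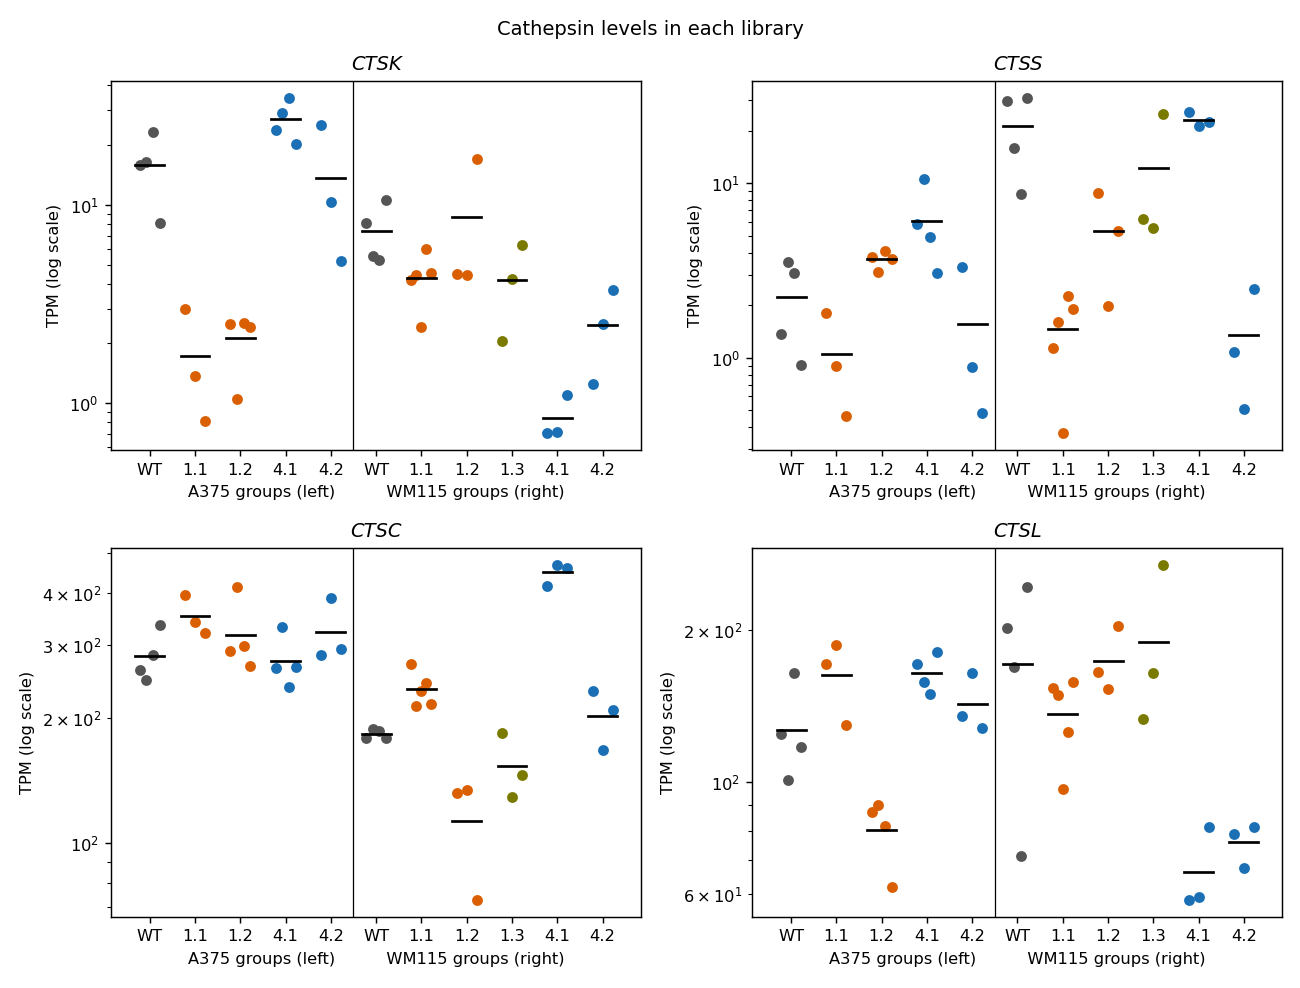
TPM of CTSK, CTSS, CTSC and CTSL in each library on log axes; points are libraries, horizontal lines group means, grey WT, orange R1 clones, blue R4 clones and olive WM115 clone 1.3. CTSK is low in A375 clones 1.1 and 1.2 and in WM115 clones 4.1 and 4.2, while CTSS is low in WM115 clones 1.1 and 4.2 and at the WT level in clone 4.1.

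CTSC, or dipeptidyl peptidase 1, which activates granule serine proteases, was called higher in WM115 clone 4.1. It measured 179, 189, 186 and 179 TPM in WM115 WT and 417, 470 and 462 TPM in clone 4.1. The groups did not overlap and differed by a log2 difference of 1.29 ± 0.17 (SE; limma adjusted p = 6.37e-05). In clone 4.2 it measured 233, 167 and 209 TPM and overlapped WT, and the difference between clones 4.2 and 4.1 was -1.15 ± 0.19 (SE; limma adjusted p = 6.89e-04). Genes of chromosome 11, which holds CTSC, had a median log2 difference of 0.29 in clone 4.1, and CTSC was 0.999 above that median.

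CTSL, cathepsin L, was lower in both WM115 R4 clones. It measured 202, 169, 71.1 and 243 TPM in WT, 58.3, 59.0 and 81.2 TPM in clone 4.1, and 78.7, 67.6 and 81.3 TPM in clone 4.2. WT library 3 lay within the range of both clones, and the other 3 lay well above. The log2 differences were -1.24 ± 0.31 and -1.03 ± 0.31 (SE; limma adjusted p = 8.20e-03 and 0.0251), and they were -1.62 and -1.41 without WT library 3. In A375 WT the mean of CTSL was 127 TPM ± 26.9 (SD, n = 4). Clone 4.1 of that line had 165 TPM ± 14.2 (SD, n = 4), and clone 4.2 had 143 TPM ± 19.4 (SD, n = 3).

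CTSH, an aminopeptidase of the cathepsin family, was called higher in WM115 clone 1.2. It measured 18.6, 14.9, 15.0 and 21.1 TPM in WM115 WT and 40.9, 34.9 and 68.8 TPM in clone 1.2. All 3 libraries were above WT, by a log2 difference of 1.37 ± 0.25 (SE; limma adjusted p = 1.57e-03), and the difference was 1.09 without library 3. CTSH was above WT on average in the other 4 WM115 clones too, with log2 differences of 0.51 to 0.70 that were not called.

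CTSZ, a carboxypeptidase, separated the WM115 R1 clones from each other. It measured 577, 416, 406, 286 and 354 TPM in clone 1.1 and 896, 1732 and 1873 TPM in clone 1.2, with 826, 1033, 669 and 648 TPM in WT. Clone 1.2 was higher than clone 1.1 by 1.84 ± 0.30 (SE; limma adjusted p = 1.76e-04), and by 1.65 without the library low in SOX10. Between these clones CTSC and ATP6V1B2 were called lower in clone 1.2, by -1.0999 and -1.03, so that 4 of 36 lysosome genes differed where 11.8% of all genes were called. Without that library the values of CTSC and ATP6V1B2 were -0.81 and -0.79, under the required size, and that of CTSS was 1.19 and not significant. Between clones 4.2 and 4.1 the called genes were CTSS and CTSC, where 2.63% of all genes were called.

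The remaining peptidases CTSA, CTSB and CTSD were not called in any clone. CTSD stayed abundant in WM115, with group means of 1064 to 1796 TPM, and its log2 differences from WT lay between -0.50 and 0.26 in that line.

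Among the hydrolases, ASAH1 showed the largest fall. Against 180, 127, 57.4 and 261 TPM in WM115 WT it measured 40.0, 42.9 and 55.6 TPM in clone 4.1 and 33.5, 39.8 and 34.9 TPM in clone 4.2. All 6 R4 libraries were below the lowest WT library, though only narrowly so for 1 of clone 4.1. The log2 differences were -1.56 ± 0.47 and -1.89 ± 0.47 (SE; limma adjusted p = 0.0235 and 9.58e-03). With the mitochondrial share as a covariate they were -0.92 and -1.44, and the first was no longer called.

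ASAH1 was also low in the R1 clone 1.2, at 42.1, 85.6 and 64.5 TPM, a log2 difference of -1.14 that was not called. In clone 1.1 it measured 157, 106, 56.9, 106 and 190 TPM and overlapped WT. Its 3 libraries of clone 1.3 measured 76.6, 58.6 and 227 TPM. In A375 all groups of ASAH1 lay between 16.8 and 36.0 TPM, under the lowest value of any WM115 WT library.

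NEU1, the lysosomal sialidase, was called lower in WM115 clone 4.2. It measured 59.95, 62.4, 36.9 and 59.9 TPM in WT and 24.3, 18.1 and 36.4 TPM in that clone, and the groups did not overlap. The log2 difference was -1.06 ± 0.25 (SE; limma adjusted p = 6.44e-03). In clone 4.1 it measured 34.3, 27.6 and 31.98 TPM, with a log2 difference of -0.76. Of the other 9 genes of this role, GAA, GLA, GUSB, HEXA, NPC2, PPT1, PSAP, SMPD1 and TPP1, none was called in any clone, and their log2 differences from WT ran from -0.70 to 0.79.

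Of the 7 membrane proteins, only CLCN7 was called in a clone. It encodes the chloride-proton exchanger of lysosomes, and OSTM1, from the list of other lysosomal membrane proteins, encodes its beta subunit. CLCN7 measured 130, 139, 91.0 and 160 TPM in WM115 WT, 35.2, 29.3 and 63.6 TPM in clone 4.1, and 46.4, 45.3 and 78.9 TPM in clone 4.2. No R4 library reached the lowest WT library. The log2 differences were -1.64 ± 0.35 and -1.199 ± 0.35 (SE; limma adjusted p = 3.07e-03 and 0.0230). Genes of chromosome 16, which holds CLCN7, had median differences of -0.46 and -0.28 in these clones, and CLCN7 was -1.18 and -0.92 from those medians.

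OSTM1 fell in the same clones. It measured 179, 145, 63.5 and 184 TPM in WM115 WT, 45.8, 35.3 and 49.5 TPM in clone 4.1, and 48.5, 35.9 and 45.1 TPM in clone 4.2. The log2 differences of -1.59 and -1.60 were both called (limma adjusted p = 8.41e-03 and 9.52e-03). OSTM1 was also called lower in the R1 clone 1.1, by -1.21, where CLCN7 had a log2 difference of -0.76. In clone 1.2 OSTM1 measured 37.2, 57.3 and 28.8 TPM and was called lower, by -1.72 (limma adjusted p = 7.26e-03); without library 3 it was -1.50 and not called (adjusted p = 0.0598). CLCN7 measured 75.2, 85.2 and 93.8 TPM in clone 1.2.

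MITF, ASAH1, CLCN7, OSTM1, CTSL and NEU1 also shared their extreme libraries in WM115. In WT, library 3 was lowest for each of the 6 genes, with 60.5 TPM of MITF, 57.4 of ASAH1, 91.0 of CLCN7, 63.5 of OSTM1, 71.1 of CTSL and 36.9 of NEU1. In clone 1.3, library 3 was highest for each, with 202 TPM of MITF, 227 of ASAH1, 194 of CLCN7, 186 of OSTM1, 270 of CTSL and 48.8 of NEU1. The pattern was not limited to these 6 genes. The summed TPM of the 37 lysosome genes was also lowest in WT library 3, at 7307 TPM. In clone 1.3 it was highest in library 3, at 11087 TPM. Not every role followed: the summed cathepsins of clone 1.3 were 4447 TPM in library 3 and 4524 TPM in library 2. The 6 genes were picked after their values were seen, and TPM are shares of one total, so the pattern is a description.

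**Figure D4:**
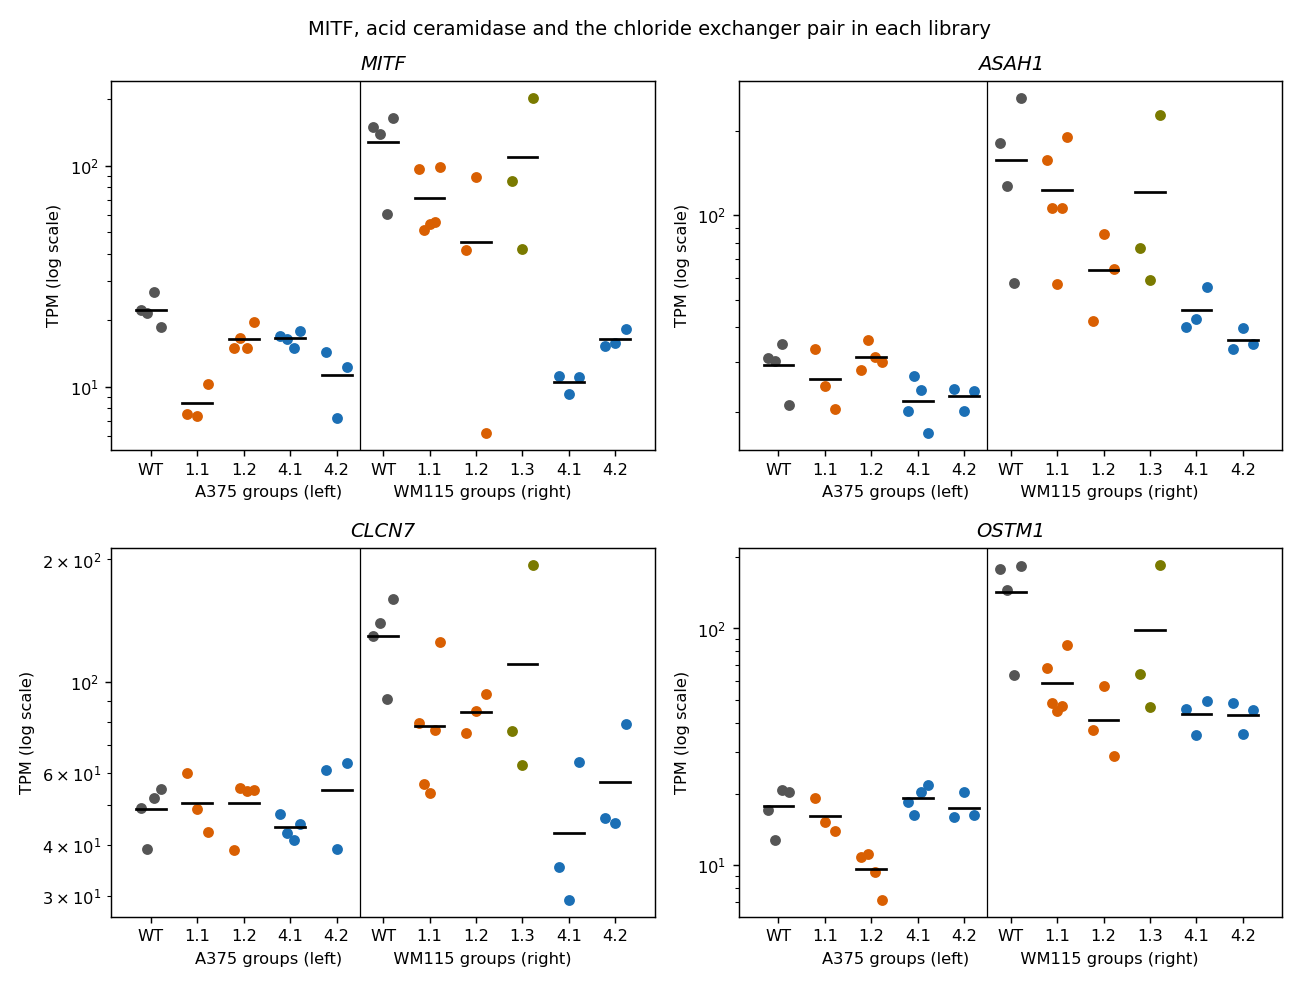
TPM of MITF, ASAH1, CLCN7 and its subunit gene OSTM1 in each library on log axes; points are libraries, lines group means, grey WT, orange R1 clones, blue R4 clones and olive WM115 clone 1.3. In WM115 the blue points lie below the grey ones in each panel. In all 4 panels WT library 3 is the lowest of its group and clone 1.3 library 3 is the highest of its group.

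LAMP1, LAMP2, CD63, SCARB2, NPC1 and MCOLN1 were called in no clone. LAMP2 had log2 differences from WT between -0.28 and 0.13 in the 9 clones. It has 3 well-known splice forms that differ in the last exon, and the table lists 4 transcripts. LAMP2-202, the form LAMP-2B by its RefSeq match, took 63.9% ± 6.0 of the gene's TPM in A375 WT (SD, n = 4) and 54.4% ± 6.9 in WM115 WT (SD, n = 4). LAMP2-201, the LAMP-2A form that serves chaperone-mediated autophagy, took 8.8% and 11.2%, and LAMP2-203, LAMP-2C, took 16.0% and 20.3%. The ranges of LAMP2-202 overlapped between the lines, at 54.9 to 67.5% and 46.8 to 63.5%.

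Of the other genes examined, CTSK came mostly from a single form in the WT libraries of both lines. TFEB had 8 transcripts with at least 5% of its TPM in some group. CTSK-201 took 96.0% of CTSK in A375 WT and 95.9% in WM115 WT. TFEB-204 took 58.3% and 68.5% of TFEB, with shares of 27.8 to 74.0% among single A375 WT libraries at levels of a few TPM. CTSB was spread over 6 transcripts with at least 5% in some group, of which CTSB-228 took 35.8% in A375 WT and 23.4% in WM115 WT. Short-read estimates divide shared reads between forms, and these shares were not tested.

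Of the 6 proton pump genes tested, 1 was called lower in a WM115 R4 clone and 0 in the other. ATP6V1B2, the B subunit of the catalytic head, measured 82.1, 90.8, 71.0 and 81.7 TPM in WM115 WT and 40.6, 30.8 and 44.7 TPM in clone 4.2. The groups did not overlap, and the log2 difference was -1.06 ± 0.22 (SE; limma adjusted p = 2.82e-03). In clone 4.1 it measured 41.7, 45.9 and 42.7 TPM, with a log2 difference of -0.89 that missed the required size. The log2 differences of the 6 pump genes ranged from -0.89 to 0.03 in clone 4.1 and from -1.06 to -0.32 in clone 4.2, with medians of -0.52 and -0.60.

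SQSTM1, which delivers ubiquitin-marked cargo to autophagosomes, measured a mean of 1116 TPM in WM115 WT and had a log2 difference of -0.98 in clone 4.2, just under the required size. Without WT library 3 the difference was -1.14 and SQSTM1 was called. In the 4 A375 clones its log2 differences were 0.31 to 0.50 and none was called.

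Counted over roles, the 4 genes called lower in both WM115 R4 clones were CTSK, CTSL, CLCN7 and ASAH1, and the 1 gene called lower in both WM115 R1 clones was CTSS. The share of all genes called lower in both clones of a region was not counted, so nothing is read from these overlaps. In single clones and in the lower direction alone, 4.37% of all genes were called in clone 4.1 and 4.08% in clone 4.2. All libraries lay below all WT libraries for 13 of 36 genes in clone 4.1, where the share over all genes was 23.1%, and for 16 of 36 in clone 4.2, where it was 20.7%. With the mitochondrial share as a covariate, CTSC, CTSK and CTSZ were called in clone 4.1 and CTSS and ASAH1 in clone 4.2; WT and the R4 clones did not overlap in that share, and its part in the result was not tested further. Leaving out library 2 of clone 4.2 left 2 of the 7 genes called there, CTSS and ASAH1, and leaving out WT library 3 gave 8. After the median of all genes of its chromosome was subtracted, 4 of the 5 called genes of clone 4.1 and 4 of the 7 of clone 4.2 still differed by at least 1; CTSC in clone 4.1, at 0.999, and CTSL, CLCN7 and NEU1 in clone 4.2, at -0.87, -0.92 and -0.81, did not.

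With the clone as the unit, which is the comparison that sets the regions against each other, the R4 and R1 clones of WM115 had no lysosome gene called between them. The 2 R4 clones against the 2 R1 clones gave 0 of 36 calls where 0% of all genes were called (limma, adjusted p under 0.05), and the lowest adjusted p among the lysosome genes was 0.562. At an unadjusted p under 0.05 there were 8 of the 36 and 969 of 16997 genes. CTSK had a log2 difference of -1.39 in this comparison.

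Other genes of the pathway were counted by list, first in the WM115 R4 clones. Of all genes tested, 7.57% were called in clone 4.1 and 6.6% in clone 4.2. Of 8 tested genes of the TFE family and its nutrient control, MITF and RRAGD were called lower in both WM115 R4 clones and 0 were called higher. RRAGD, a Rag GTPase by which nutrients control TFEB and TFE3, measured 25.1, 25.8, 18.2 and 32.3 TPM in WM115 WT, 7.96, 6.28 and 5.84 TPM in clone 4.1, and 11.2, 11.9 and 10.2 TPM in clone 4.2. The groups did not overlap, with log2 differences of -1.76 and -1.101 (limma adjusted p = 6.10e-05 and 3.83e-03). Of 6 tested sorting genes, SORT1, the receptor sortilin, was called lower in both clones, by -1.72 and -1.49.

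The 27 other lysosomal hydrolases had 0 genes called in clone 4.1. In clone 4.2, AGA was called higher and ARSB and GM2A lower. Of 16 other lysosomal membrane proteins OSTM1 was called lower in clone 4.1, and OSTM1 and SLC17A5 in clone 4.2. None of the 17 other tested pump subunits and none of the 11 autophagy receptors and ATG8 genes was called in either clone, and of 3 cathepsin inhibitors CSTA was called higher in clone 4.1. In clones 4.1 and 4.2 the median log2 difference was -0.17 and -0.14 for the hydrolases, -0.18 and -0.32 for the membrane proteins, and -0.12 and -0.21 for the pump subunits. It was -0.63 and -0.63 for the sorting genes, -0.54 and -0.64 for the TFE family, 0.10 and -0.27 for the autophagy genes, and 0.07 and -0.10 for the inhibitors. All genes had a median of -0.10 in both clones.

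The same lists held called genes in WM115 clones 1.1 and 1.2 too, where 4.88% and 7.61% of all genes tested were called. In clone 1.1, LIPA, the lysosomal acid lipase, was called higher, and FUCA1, IDUA, OSTM1, GABARAPL1 and OPTN were called lower. In clone 1.2, FUCA1 and CSTA were called higher, and MITF, FNIP2, ARSB, OSTM1 and ATP6V0A4 lower. Without library 3 of clone 1.2, ATP6V0A4 alone of these 7 was still called, at -1.34 ± 0.24 (SE; limma adjusted p = 4.17e-03). ATP6V0A4, a pump subunit, was called higher in A375 clone 4.1, and no gene of these lists was called in A375 clone 4.2 or WM115 clone 1.3.

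Between the unedited lines genes of these lists were called in 1 direction. Of all genes tested there, 13.1% were called higher in WM115 WT and 9.55% lower. In WM115 WT, 11 of 27 other hydrolases were called higher, among them ARSA, LGMN and LIPA, and 7 of 16 other membrane proteins, among them CD68, OSTM1 and TPCN2. Of the 17 other pump subunits 1 was called higher, ATP6V1C2. No gene of these lists was called lower. MITF was higher in WM115 WT by 2.39 ± 0.29 on the log2 scale (SE; limma adjusted p = 1.26e-04) and RRAGD by 1.58.

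Markers of cell identity were counted in the same libraries. Of 8 melanocytic markers, 6 were called lower in WM115 clone 4.1 (PMEL, MLANA, TYR, DCT, TYRP1 and GPNMB) and 5 in clone 4.2 (the same without PMEL), and their summed level was 1398 to 3641 TPM in WT, 833 to 1214 in clone 4.1 and 757 to 1143 in clone 4.2. SOX10 itself had log2 differences of -0.33 and -0.28 there and was not called. GPNMB, a melanosome and lysosome glycoprotein, measured 800, 802, 415 and 915 TPM in WT, 82.4, 51.3 and 102 TPM in clone 4.1, and 89.1, 112 and 95.7 TPM in clone 4.2. Of the 7 macrophage and osteoclast markers, 5 were under 1 TPM in all libraries of WM115 WT and of both R4 clones, and their summed level was 50.8 to 84.8 TPM in WT, 11.7 to 15.3 TPM in clone 4.1 and 9.63 to 16.7 TPM in clone 4.2. TNFRSF11A, the receptor RANK, was called higher in both R4 clones and ACP5 lower. Nearly all of the WT sum was ACP5, so the lower sum repeats the fall of ACP5 and is no decline of the whole list. ACP5, the acid phosphatase of osteoclasts, measured 70.8, 83.5, 49.4 and 75.03 TPM in WT, 8.29, 8.30 and 10.9 TPM in clone 4.1, and 5.58, 13.1 and 10.2 TPM in clone 4.2. The log2 difference of ACP5 was -2.78 in both clones (limma adjusted p = 8.05e-05 and 1.39e-04). In WM115 clone 1.2, SOX10, MLANA, DCT and GPNMB, 4 of the 8 melanocytic markers, were called lower, with a summed marker level of 209 to 1333 TPM, while 2 lysosome genes were called there, CTSS lower and CTSH higher. Without library 3 of that clone MLANA and DCT were still called. In clone 1.1 TYR was called lower, and the sum was 1448 to 2554 TPM. The summed level of fibroblast and epithelial markers was 85.6 to 134 TPM in WT, 120 to 168 in clone 4.1 and 118 to 161 in clone 4.2. Of these markers, DCN and KRT14 were called higher in clone 4.1. KRT14 was called higher and LUM lower in clone 4.2, and LUM was called lower in clone 1.1. In clone 1.2 PDGFRB and KRT18 were called higher and LUM lower, and without library 3 PDGFRB and LUM were still called. The part of the melanocytic markers in the lysosome results was not tested, and in bulk libraries fewer cells of a type and less RNA per cell cannot be told apart.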

How the data were processed

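The authors deposited gene-level and transcript-level values in TPM, with no counts; the submitters' processing notes name DRAGEN and GRCh38, and an annotation release is not given in the sources used here. RNA was captured on oligo-dT beads and primed with random hexamers, per the labels' protocols. The gene table had 60871 lines, of which 200 repeated another, and 60671 genes; 6 columns of no sample were not used. Libraries were grouped by line and clone. No 2 libraries held identical values, and correlations within groups were 0.973 to 0.995.

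Each line was fitted on its own, with 1 coefficient per group, on log2 of the deposited TPM plus a pseudocount of 1. The fit used limma 3.58.1 (R 4.3.3; variance trend, two-sided) and kept a gene that reached 1 TPM in 3 or more libraries. The regions were compared over clone means. Scripts were tested on simulated data. Fold changes of low genes are understated on this scale, and reads of close paralogs such as CTSL and CTSV may be split. Gene positions come from GENCODE 29.

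Values of every library are given for CTSK, TFEB, TFE3 and, per comparison with WT or between WT lines, the 3 called genes with the largest rise and fall; further genes were added after their values were seen. The genes and lists were chosen with earlier results of these data known.

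Replicate numbers paired A375 clone 4.1 with WT: same-numbered libraries deviated together with r = 0.326, 0.776, 0.342 and 0.705. No other pair of groups compared here reached 0.326 in all its pairs. Between WM115 clones 4.2 and 4.1 the values were 0.238, 0.0175 and 0.129. Pairs of groups not compared here were not examined for this. Alternatives were another pseudocount, filters, scalings, models, a replicate block, a mitochondrial covariate, leaving out each library and, chosen after seeing the data, libraries of one mitochondrial range.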

Additional observations from a re-analysis of the deposited data

Results flagged for a closer look

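Of 180 values of lysosome genes in groups of 4 or 5 libraries, 9 had 1 library far from the others by Dixon's criterion, where chance alone flags about 1 group in 20. In A375 clone 1.2, library 1 was low in TFE3 (49.2 TPM, the next 59.5) and CLCN7 (38.8 TPM, the next 54.3). Library 2 of that clone was low in CTSK (1.05 TPM, the next 2.42), SCARB2 (56.9 TPM, the next 75.2) and TPP1 (30.3 TPM, the next 50.1). In A375 WT, library 1 was high in CTSA (141 TPM, the next 120) and library 2 was low in PPT1 (90.2 TPM, the next 128). In WM115 WT, library 4 was high in CD63 (1569 TPM, the next 1126) and library 3 was low in NEU1 (36.9 TPM, the next 59.9). That low NEU1 value belongs to the same library that was low in MITF, ASAH1 and OSTM1. The summed TPM of the 37 genes was also lowest there among the WM115 WT libraries.

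For 2 genes both R4 clones moved one way in A375 and the other way in WM115, and the difference between the lines was not tested for this contrast. CTSL had a mean log2 difference from WT of 0.29 in the A375 R4 clones and of -1.14 in the WM115 R4 clones. NPC2, the cholesterol carrier, had 0.38 and -0.32. Only the WM115 values of CTSL were called against WT.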

How the results depend on the processing

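Of 226 recomputed counts of called lysosome genes, 185 stayed within 1.5 times the reported count and 41 moved. The 185 include counts that were 0 and stayed 0, so their share does not measure how stable the calls were. The 2 calls between WM115 clones 4.2 and 4.1, CTSS in WM115 clone 1.1, and CTSC and CTSK in WM115 clone 4.1 held under every alternative run. Counts for A375 clones 1.1 and 1.2 include CTSK, which chose the set, and support nothing. With no minimum difference the counts were 2 in A375 clone 1.1, 2 in A375 clone 1.2, 9, 8, 14 and 16 in WM115 clones 1.1, 1.2, 4.1 and 4.2, 24 between the WT lines, 15 between clones 1.2 and 1.1, and 5 between clones 4.2 and 4.1. The share of all genes under that rule was not counted, so nothing is read from the size of these counts. With the replicate block they were 0 in A375 clone 1.1, 1 in A375 clone 4.1, 0, 2 and 0 in WM115 clones 1.2, 4.1 and 4.2, and 0 between clones 1.2 and 1.1; apart from A375 clone 4.1 the numbers did not pair the libraries, so these fits share only a number. With the mitochondrial share as a covariate they were 2, 3 and 2 in WM115 clones 1.1, 4.1 and 4.2 and 1 between the WT lines. In libraries of one mitochondrial range, an alternative chosen after seeing the data, they were 0 and 0 in A375 clones 1.1 and 1.2 and 1 and 2 in WM115 clones 1.2 and 4.2; the fit uses fewer libraries, and WM115 clone 4.1 had 1 library there and was not fitted. Quantile normalization gave 2 in WM115 clone 1.1, a fit of only the 2 groups gave 1 in clone 1.2, and no filter and median-of-ratios scaling gave 4 and 4 in clone 4.2; where no cause is named it was not tested. Leaving out 1 library gave 1 to 1, 1 to 1, 0 to 0 and 0 to 0 in A375 clones 1.1, 1.2, 4.1 and 4.2, 1 to 2, 1 to 3, 0 to 1, 4 to 5 and 2 to 8 in WM115 clones 1.1, 1.2, 1.3, 4.1 and 4.2, 15 to 17 between the WT lines, 1 to 4 between clones 1.2 and 1.1, 2 to 3 between clones 4.2 and 4.1, and 0 between regions. Among single genes 15 differences changed sign, of which only that of CD63 between the WT lines had been called. With the mitochondrial covariate CD63 was -0.29 and TFE3 0.49 between the WT lines. CTSK in WM115 clone 1.2 was -0.013 with a pseudocount of 0.1 and -0.012 with quantile normalization. Leaving out 1 library at a time moved CTSK from -0.57 (without library 3) to 0.30 in WM115 clone 1.2 and from -0.93 to 0.11 in A375 clone 4.2. It moved TFEB from -0.29 to 0.092 in A375 clone 1.2, from -0.25 to 0.14 in A375 clone 4.1 and from -0.14 to 0.12 between WM115 clones 4.2 and 4.1, and TFE3 from -0.28 to 0.046 in WM115 clone 1.3; without library 3 of WM115 clone 1.2, TFE3 was 0.0022 between regions. Median-of-ratios scaling moved the median of all genes from -0.12 to -0.018 in WM115 clone 1.1 and from -0.10 to 0 in clone 4.1. In clone 4.2 the median moved from -0.096 to -0.0026. Relative to all genes, falls in these clones lie about that much nearer to 0 and rises about that much farther from it. The share of higher genes among all called went with quantile normalization from 25.4 to 39.8% in A375 clone 1.1 and from 64.1 to 51.9% in A375 clone 1.2. In WM115 it went from 24.97 to 43.4% in clone 1.1, from 42.3 to 54.5% in clone 4.1, from 38.2 to 50.9% in clone 4.2 and from 72.4 to 56.8% between clones 1.2 and 1.1. Depth is unknown, which limits values near 1 TPM, CTSK in WM115 clone 4.1 among them.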
